A study of Mus musculus with 4 samples.

Results

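KO-only regions were stretches of open chromatin with a peak in both libraries of TOX knockout (KO) CD4 T cells and with no peak in either wild-type (WT) library. The assay was ATAC-seq, which reads open DNA from the places where a transposase can cut and tag it, and the deposited data were 4 peak lists, 1 per library. Peaks of the 4 lists that overlapped by at least 1 bp were merged into regions, and chr4:1686353-11991557 (GRCm38), which surrounds Tox, was left out. Of 97018 merged regions outside that window, 1708 were KO-only, which is 1.76%. The reverse class, found in both WT lists and in no KO list, held 8533 regions (8.8%) and is called WT-only. With each list cut to its 20000 strongest peaks, the classes were closer in size, at 1762 KO-only and 2347 WT-only regions. That cut also drops weaker peaks of the other genotype. These regions can hold such a peak in the full lists and need not be members of the classes above. A further 26744 regions had a peak in every library. The window that was left out held 29 more KO-only regions among its 376 regions. All 4 libraries chose the members, so their number, their peak strength and the genes they sit at are descriptions and carry no test.

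All cells were SMARTA CD4 T cells, whose transgenic T cell receptor recognises the GP61 peptide. They were naive when transferred into cytoxan-treated mice bearing B16-GP61 tumors, a melanoma line that expresses the peptide, and were recovered on day 11 from lymph nodes that drain the tumor. The KO cells were sorted as CD4+ Ly5.1+ Ly5.2- with low PD1, LAG3 and CD39, and the WT cells as CD4+ Ly5.1+ Ly5.2+ with high levels of these 3 proteins. Genotype, congenic marker and sort gate changed together, so their parts in a difference cannot be told apart, and the labels give neither the deleted part of Tox nor whether the 2 libraries of a genotype came from separate mice. The mice's age is not given in the sources used here.

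TOX, a nuclear protein that binds DNA through an HMG box, is needed for CD4 T cell development and known for its role in the chromatin state of exhausted T cells. Open regions fall broadly into promoters, where transcription starts, and distal elements such as enhancers, which can lie far from the gene they act on. Naive and memory T cells keep open chromatin at genes of T cell identity, homing and quiescence, while Th1 effector cells open elements at cytokine genes such as Ifng. The nearest gene of a region is a label of its place and need not be its target.

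Few KO-only regions lay at a promoter, and the sequences of 4 that did show how different these promoters were. Of 21259 RefSeq gene starts with a listed promoter window (GRCm38.p6, 250 bases before to 50 after the start, outside the Tox window), 23 windows of 23 genes had at least 150 of their 300 bases inside a KO-only region. Capitals mark CG dinucleotides, the sites of DNA methylation that gather in CpG island promoters. Lsm14b (chr2:180024737-180025036, + strand) and Ecm1 (chr3:95739520-95739819, - strand) are shown as the strongest KO-only regions at a start. Acsl6 (chr11:54303954-54304253, + strand) is shown as the promoter of a gene with 4 KO-only regions, and Gimap4 (chr6:48684328-48684627, + strand), which encodes a GTPase of lymphocytes, was picked after its values were seen as a T cell gene with a weak region.
Lsm14b: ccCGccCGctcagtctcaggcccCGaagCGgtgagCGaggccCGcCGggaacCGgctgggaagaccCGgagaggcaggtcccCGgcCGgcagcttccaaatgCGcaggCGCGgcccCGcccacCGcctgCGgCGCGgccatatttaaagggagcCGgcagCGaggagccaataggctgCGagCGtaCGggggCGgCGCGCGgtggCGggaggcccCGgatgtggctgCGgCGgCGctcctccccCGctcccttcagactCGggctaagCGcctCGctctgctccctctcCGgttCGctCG
Ecm1: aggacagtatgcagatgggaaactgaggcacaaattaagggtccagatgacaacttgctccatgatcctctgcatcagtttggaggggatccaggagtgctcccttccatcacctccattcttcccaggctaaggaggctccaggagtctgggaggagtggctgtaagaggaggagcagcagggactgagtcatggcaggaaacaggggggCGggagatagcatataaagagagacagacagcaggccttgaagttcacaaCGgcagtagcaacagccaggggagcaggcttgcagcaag
Acsl6: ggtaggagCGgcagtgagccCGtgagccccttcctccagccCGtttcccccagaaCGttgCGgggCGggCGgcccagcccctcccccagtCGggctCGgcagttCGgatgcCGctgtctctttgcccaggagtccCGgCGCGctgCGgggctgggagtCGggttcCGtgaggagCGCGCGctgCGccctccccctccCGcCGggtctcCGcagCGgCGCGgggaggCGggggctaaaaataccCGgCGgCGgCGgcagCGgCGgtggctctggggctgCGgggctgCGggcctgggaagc
Gimap4: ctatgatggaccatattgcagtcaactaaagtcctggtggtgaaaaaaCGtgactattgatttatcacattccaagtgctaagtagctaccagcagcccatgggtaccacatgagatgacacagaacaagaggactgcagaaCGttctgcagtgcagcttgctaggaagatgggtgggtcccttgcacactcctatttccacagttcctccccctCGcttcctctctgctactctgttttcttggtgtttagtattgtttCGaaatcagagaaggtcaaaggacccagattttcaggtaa
The Lsm14b window held 40 CG dinucleotides and the Acsl6 window 36, against 2 in that of Ecm1 and 4 in that of Gimap4. Over the 23 windows the median was 14 CG dinucleotides, with a range of 2 to 44. The median was 11 in 214 windows at WT-only regions, 23 in 9996 windows at regions open in every library and 13 over all 21259 windows. GC content followed the same order among the region classes, with medians of 60% at KO-only, 58.2% at WT-only and 62.3% at every-library regions.

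A search of these windows on both strands gave the letters of 8 motifs. The RUNX motif TGTGGT was in 8 of 23 windows at KO-only regions (34.8%). Its share was 16.8% at WT-only regions, 11.5% at every-library regions and 14.97% of all windows. The AP-1 motif TGANTCA was in 4 windows (17.4%), those of Ecm1, Entpd2, Agbl2 and Smim14. Its share was 5.61% at WT-only regions, 3.83% at every-library regions and 6.99% of all windows. The GC box GGGCGG was in 65.2% of windows at KO-only regions, 50.5% at WT-only, 70.3% at every-library regions and 46.2% of all windows. The CCAAT box CCAAT was in 21.7% at KO-only and 29.4% at WT-only regions, against 38.8% at every-library regions and 38.2% of all windows. The ETS core CCGGAA was in 4.35% at KO-only and 7.48% at WT-only regions, against 32.0% at every-library regions and 18.7% of all windows. Shares at KO-only, WT-only and every-library regions and over all windows were, for TATAAA, 8.70%, 9.35%, 5.48% and 12.6%. For the TCF-LEF motif CTTTGA they were 8.70%, 11.7%, 10.6% and 14.4% in the same order. The T-box motif TCACACC was in none of the 23, in 7.01% at WT-only regions, 3.06% at every-library regions and 3.68% of all windows. With 23 windows, 1 window makes up 4.35%, and a match describes letters and not a bound site.

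The Lsm14b promoter stood apart from all other KO-only regions in strength and was the widest, with the next at 1073 bp. Its region, chr2:180024340-180025579, spanned 1240 bp around the start of Lsm14b, which encodes an RNA-binding protein of the LSM family. Strength is given as the deposited fold enrichment, the authors' ratio of a peak's reads to the background that the peak caller set for that list, and as its percentile among all peaks of that library. At Lsm14b the fold enrichment was 12.3 in KO-1 (percentile 97.2) and 18.3 in KO-2 (percentile 98.3), and the nearest WT peak lay 40326 bp away. The nearest regions open in every library lay at Taf4 on one side and at Hrh3 and Osbpl2 on the other. At Taf4 (chr2:179976272-179977366, 46974 bp away) the fold enrichment was 9.54 and 12.98 in KO-1 and KO-2, and 13.2 and 13.001 in WT-1 and WT-2. At Hrh3 (chr2:180103856-180104881, 78277 bp away) it was 3.75, 10.4, 7.48 and 8.45 in the same order, so these libraries differed there too. At Osbpl2 (chr2:180118797-180120063, 93218 bp away) it was 11.99, 18.0, 15.3 and 15.4. In both KO libraries the Lsm14b peak was as high as the Osbpl2 peak, while the WT lists held none there. The numbers in the deposited peak names had gaps of 1603 to 1900 numbers per list, so a list can lack a peak that was called and then removed, and whether this holds at Lsm14b was not tested.

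Apart from this promoter, the strongest KO-only regions lay away from gene starts. The second strongest by the lower of its 2 percentiles was chr7:99003105-99003815, inside Uvrag, a gene of autophagy and endosome traffic, with fold enrichments of 7.69 (KO-1) and 11.3 (KO-2). A second region inside Uvrag, chr7:99027014-99027708, had 5.56 and 7.69. The region inside Vmn2r102, a vomeronasal receptor gene, at chr17:19691890-19692579 had 7.04 and 11.3. A region 92551 bp from Wwox, chr8:115444930-115445596, had 7.01 and 12.9. Among the 15 strongest, 9 regions lay inside a gene interval, 3 had no protein-coding gene within 100 kb, and only those of Lsm14b and Ecm1 overlapped a listed start. Ecm1, which encodes an extracellular matrix protein, had fold enrichments of 5.44 and 7.88 at chr3:95739423-95739873.

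Most KO-only regions were weak peaks of their libraries. The median fold enrichment was 3.03 in KO-1 (range 1.86 to 12.3) and 3.83 in KO-2 (range 1.71 to 18.3). These medians stood at percentiles 30.4 and 43.8 of all peaks of the 2 libraries. The lower of the 2 percentiles had a median of 26.0 over the KO-only regions, 35.6 over the WT-only regions in the WT libraries and 67.5 over the every-library regions in the KO libraries. It was 50 or more in 197 KO-only regions (11.5%), against 30.4% of WT-only and 72.3% of every-library regions. It was 75 or more in 5 KO-only regions (0.293%), and 90 or more only at Lsm14b.

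**Figure D1:**
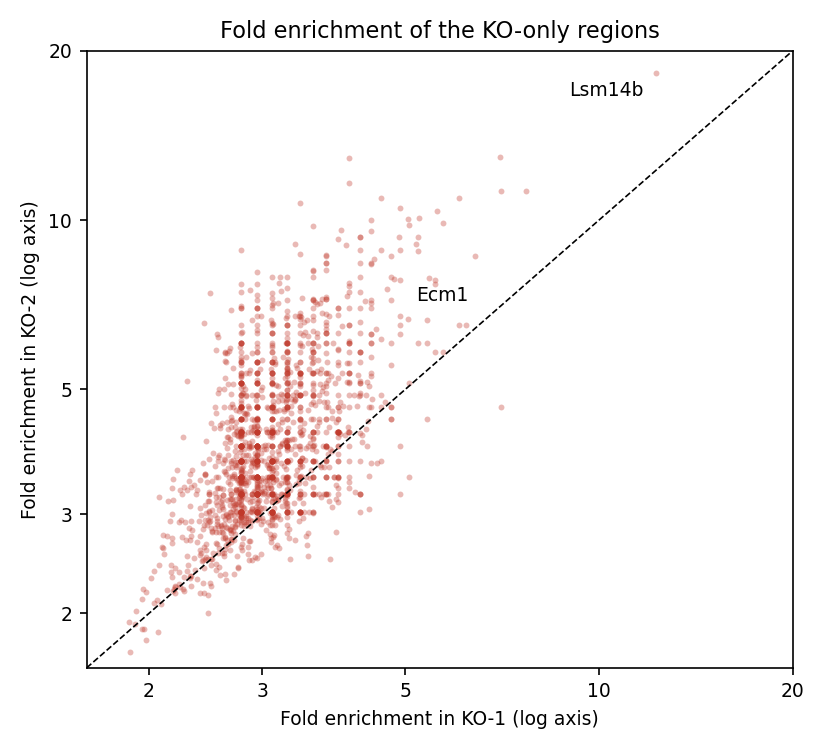
Deposited fold enrichment of the 1708 KO-only regions in KO-1 (x axis) and KO-2 (y axis), both on log axes, with 1 point per region and a dashed line of equality. Most points lie between 2 and 10 and above the line, many share the same value in a library and so form columns, and Lsm14b stands alone at the upper end.

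The 2 KO libraries differed from each other. KO-2 had the higher fold enrichment at 1474 of the 1708 regions (86.3%) and the higher percentile at 1205 (70.6%), and the latter share was 77.9% among every-library regions. KO-1 had 43078 peaks, fewer than the 56852 to 61773 of the other libraries. Of 9169 regions with a KO-1 peak and no WT peak, 1708 (18.6%) had a KO-2 peak as well. Of 19937 regions with a KO-2 peak and no WT peak, those same 1708 (8.57%) had a KO-1 peak as well. The matching shares among WT libraries were 49.5% and 40.3%. The share that repeated was higher for stronger KO-2 peaks. A KO-1 peak was present at 8.57% of the KO-2 peaks with no WT peak at any strength, at 36.5% (1011 of 2769) of those with a −log10 q of at least 5, at 62.6% (444 of 709) of those with at least 10 and at 93.2% (82 of 88) of those with at least 20.

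**Figure D2:**
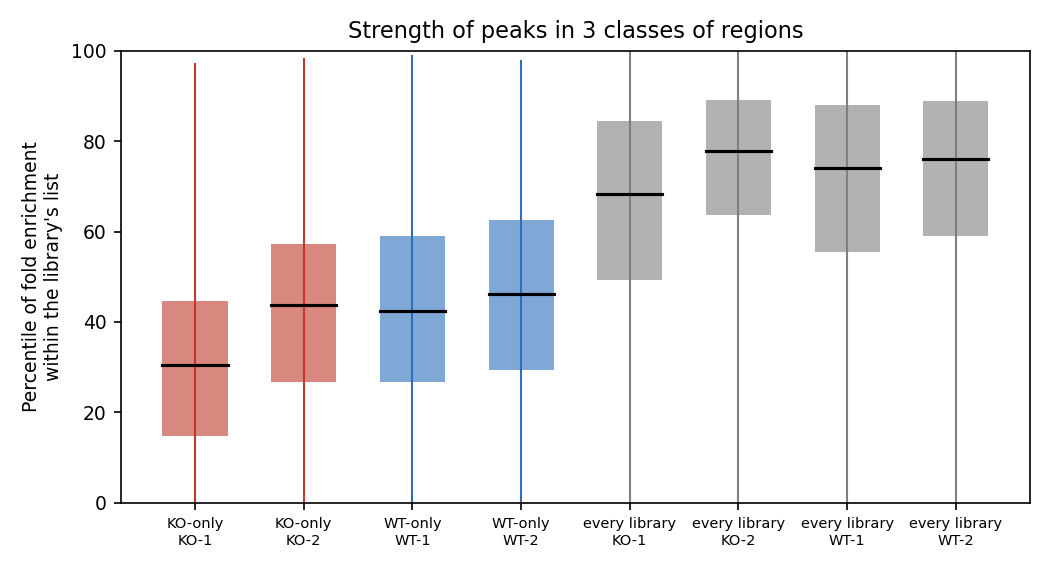
Percentile of fold enrichment within each library's own peak list (y axis) for KO-only, WT-only and every-library regions in the libraries that have the peak (x axis). Boxes span the quartiles, black lines are medians and thin lines the full range. The KO-only medians of 30.4 and 43.8 lie under the every-library medians in all 4 libraries.

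The edge of the rule was close for many members. Every deposited peak had a −log10 q of at least 2.00. The weaker of a member's 2 KO peaks had a −log10 q of 2.00 at the lowest, 3.31 at the median and 154.722 at Lsm14b, with 25.3 next in order, and it was under 3 in 723 members (42.3%). Just outside the rule were 2255 regions with both KO peaks and exactly 1 WT peak, of which 767 had the WT-1 peak and 1488 the WT-2 peak. The lone WT peak of these regions had a median −log10 q of 4.64, and in 446 of them it was under 3. An absent WT peak is therefore an absence from a thresholded list and not a measured level of 0.

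KO-only regions were narrow and mostly far from the ends of protein-coding genes. Their median width was 334 bp (range 150 to 1240), against 373 bp for WT-only and 852 bp for every-library regions. Only 5 were over 1 kb wide, and these lay at Lsm14b, Lmf1, Cstad, Vangl2 and Sppl3. A protein-coding gene end lay within 1 kb of 125 KO-only regions, which is 7.32% (95% exact binomial interval 6.13 to 8.66, over regions and for counting error alone). The share was 8.65% for WT-only, 38.6% for every-library and 15.9% for all regions. Among regions of 262 to 453 bp, the middle range of KO-only widths, these shares were 7.23% for KO-only, 7.94% for WT-only and 12.2% for every-library regions. A listed gene start was overlapped by 26 KO-only regions (1.52%), 2.44% of WT-only and 30.2% of every-library regions.

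Most members lay within a gene. The interval of a protein-coding gene was overlapped by 1011 KO-only regions (59.2%, interval 56.8 to 61.5), 56.3% of WT-only, 71.4% of every-library and 56.1% of all regions. By midpoint, 1001 lay inside a gene, 222 upstream and 183 downstream of the nearest gene, 139 beside a gene whose strand the RefSeq table did not give, and 163 (9.54%) had no gene within 100 kb. Exons, introns and UTRs were not assigned. The median distance to a gene end was 19690.5 bp, against 16523 bp for WT-only and 4424 bp for every-library regions.

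**Figure D3:**
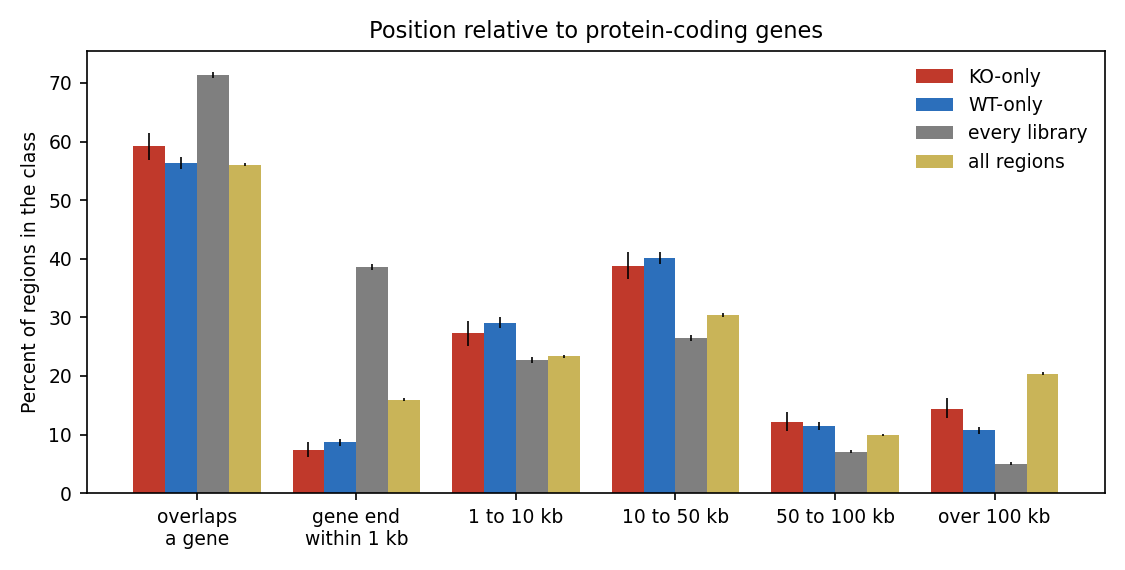
Share of regions (y axis, percent) that overlap a protein-coding gene, and share by distance from the region to the nearest gene end (x axis), for KO-only, WT-only, every-library and all regions. Error bars are 95% exact binomial intervals. KO-only and WT-only bars are close together, and the every-library bar at 1 kb or less is 38.6% against 7.32% for KO-only.

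KO-only regions often lay beside chromatin that was open in WT cells too. The nearest WT peak was at a median of 3343.5 bp, and 483 KO-only regions (28.3%) had one within 1 kb. For WT-only regions, the nearest KO peak was at a median of 6318 bp, and 16.8% had one within 1 kb. A region open in every library lay within 10 kb of 974 KO-only regions (57.0%) and of 43.6% of WT-only regions. The WT lists held 56852 and 61489 peaks and the KO lists 43078 and 61773, and the part of these list lengths in the difference was not tested.

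Members were spread over all 20 chromosomes in the lists and gathered only in short runs. Their share of a chromosome's regions was lowest on chromosome 10 (80 of 5696, 1.40%) and highest on chromosome 11 (138 of 5706, 2.42%), followed by chromosomes 12 (2.32%), 14 (2.28%) and 15 (2.16%). On chromosome X it was 1.42%. The next region in genome order was KO-only for 86 members (5.04%), which is 2.86 times the 1.76% share of all regions. This ratio was 1.72 without KO-1, 1.64 without KO-2 and 1.64 with the 20000 strongest peaks of each list, and 4.46 for members with no WT peak within 1 kb. With KO-only narrowed to the 56 members with a −log10 q of at least 10 in both KO libraries, none lay next to another. For WT-only regions the matching values were 19.9% and 2.26 times. Another KO-only region lay within 10 kb of 199 members (11.7%), and the median distance to the nearest was 169632 bp.

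There were 76 pairs of adjacent KO-only regions and 5 runs of 3, while 1541 members had no KO-only neighbour. The runs lay within Rad51b (chr12:79649873-79663463), a DNA repair gene, within Msra (chr14:64368291-64378572), which encodes a methionine sulfoxide reductase, within Fam114a1 (chr5:65003043-65007651), within Pgpep1l (chr7:68257915-68263802) and upstream of Csnka2ip (chr16:64623423-64649919). The run at Csnka2ip was the strongest, with fold enrichments of 3.15 to 5.599 in KO-1 and 5.09 to 10.4 in KO-2. The nearest WT peak to its 3 regions lay 73901 bp away. In windows of 1 Mb, the most was 7 KO-only regions, reached in 4 windows, which held Tnfrsf19 and Kpna3 (chromosome 14), Jak1 and Dnajc6 (chromosome 4), Id2 (chromosome 12) and Sppl3 and Pxn (chromosome 5). In this order the windows held 52, 61, 75 and 87 regions, of which 1, 2, 6 and 7 were WT-only.

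Of 16458 protein-coding genes with a region within reach (nearest gene within 100 kb), 1232 had at least 1 KO-only region, which is 7.49%. A single KO-only region was found at 1004 of them, 2 at 169 and 3 or more at 59. The 59 were long genes with many regions, with a median length of 146152 bp and 32 regions, against 23239.5 bp and 3 regions for all 16458 genes. WT-only regions were absent at 17 of the 59, at 695 of the 1232 genes with a KO-only region and at 12083 of all 16458 genes. KO-only outnumbered WT-only regions at 40 of the 59, a count that the choice of at least 3 KO-only regions favours.

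Of the 59, Inpp4b, which encodes a phosphoinositide phosphatase, had 6 KO-only and 3 WT-only regions among 92, of which 56 and 60 had a peak in KO-1 and KO-2 and 32 and 39 had one in the WT libraries. All 6 lay inside the gene, and the strongest, chr8:81717166-81717767, had fold enrichments of 4.58 and 8.85. Rad51b also had 6, with 7 WT-only among 59 regions. Pik3r1, the regulatory subunit of PI3 kinase, had 4 KO-only and 3 WT-only among 37 regions, and Itpkb, an inositol trisphosphate kinase of T cell development, 4 and 2 among 30. The Itpkb regions were among the weakest members, with fold enrichments of 2.10 to 2.26 in KO-1 and 2.61 to 3.60 in KO-2. Jak1, a kinase of cytokine receptors, had 4 and 2 among 38. Peli1, a ubiquitin ligase that restrains T cell activation, had 3 and 0 among 29, and Runx1, a transcription factor of T cell development and quiescence, had 3 and 2 among 42.

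At a few of the 59, WT libraries had almost no peak. Acsl6, an acyl-CoA synthetase gene, had 4 KO-only regions among 9, with a peak at 6 and 7 of the 9 in KO-1 and KO-2, and at 0 and 2 in the WT libraries. They included its promoter (chr11:54303964-54304197, fold enrichments of 3.11 and 2.97) and 2 regions upstream, at 9108 bp (chr11:54294317-54295077, 3.67 and 4.89) and 6859 bp (chr11:54296753-54297140, 2.95 and 8.09). Csnka2ip had 4 among 8, with peaks at 4 and 7 in KO-1 and KO-2, and at 0 and 1 in the WT libraries. Tceal3 had 3 among 7, with peaks at 4 and 6, and at 1 and 0. None of the 3 genes had a WT-only region or a region open in every library.

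Genes were also grouped into 17 lists by role, and each list was described by the share of its regions that were KO-only, beside 1.87% (1545 of 82478) for all genes with a region. T cell identity and receptor signalling genes had the largest number, with 31 KO-only and 25 WT-only regions among 504, which is 6.15% KO-only. At least 1 was found at 7.49% of all genes with a region and at 17 of the 30 list genes. At these genes KO-only outnumbered WT-only at 11 and the reverse held at 7, whereas over all genes 758 had more KO-only and 4087 more WT-only regions. The median share per gene was 4.12% in the list. Over all genes it was 0%, a value set by only 7.49% of them having a KO-only region. The median over all genes was 3 regions, while the list's 30 genes held 504. These gene counts and medians are therefore not like for like. KO-2 had a peak at 71.8% of the 504 regions, above KO-1 (50.8%), WT-1 (58.7%) and WT-2 (59.9%), while over all genes the shares were 44.2% and 61.3% in KO-1 and KO-2, and 59.8% and 65.1% in the WT libraries. The share rests on both KO libraries: with KO-1 left out, 22.9% of the list's regions had a KO-2 peak and no WT peak against 22.3% of all regions, and with KO-2 left out it was 13.6% against 11.7%. With stricter lists the share was 8.22% against 2.15% of all regions (−log10 q of at least 5) and 3.72% against 1.82% (at least 10). These limits also drop weaker WT peaks, so a region that holds one can count as KO-only. At the limit of 10 the list had 8 such KO-only regions, against 0 when WT peaks of any strength were counted. All regions in these settings, here and at the lists below, include those with no gene within 100 kb, unlike the 1.87%. A share for regions at genes alone is not given for these settings. None of the 56 members with a −log10 q of at least 10 in both KO libraries lay at this list. The 56 were 0.0577% of all regions, too few to describe a list of 504 regions.

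**Figure D4:**
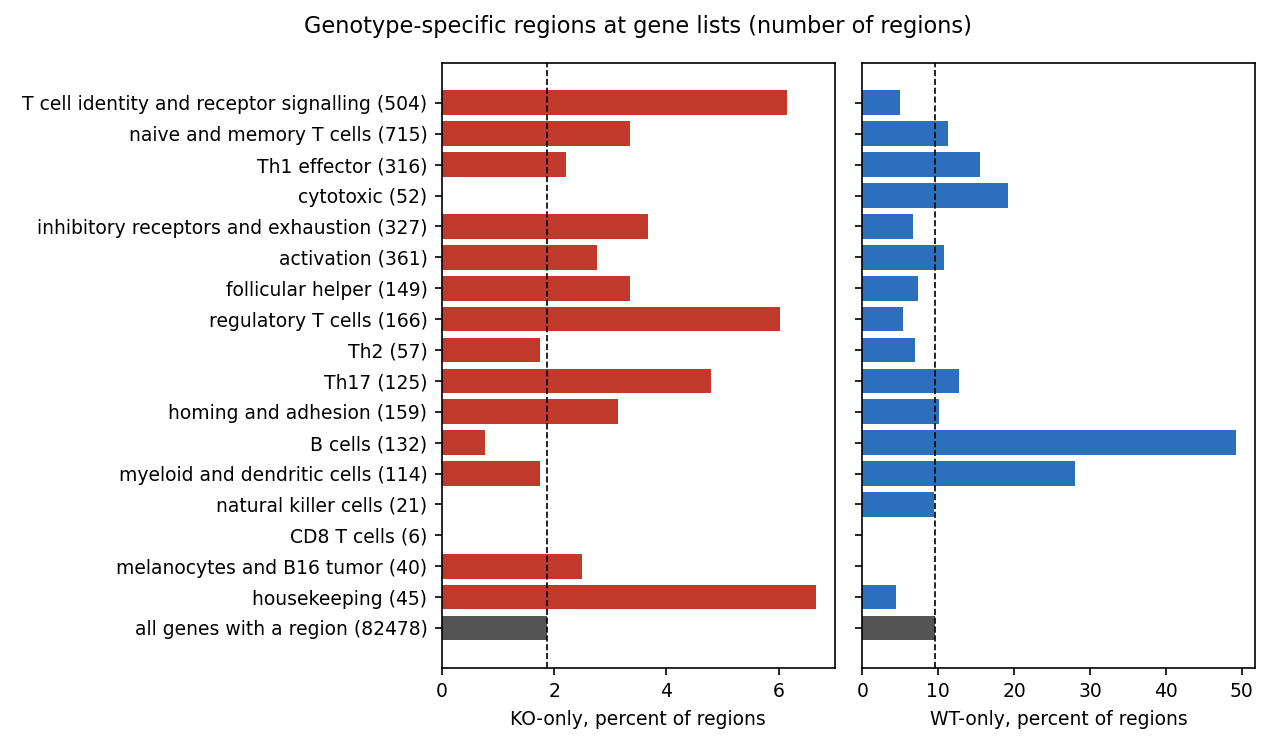
Share of each gene list's regions that were KO-only (left, red) and WT-only (right, blue), in percent of the list's regions, with the number of regions in brackets and a dashed line at the share for all genes (gray bar). T cell identity genes stand at 6.15% KO-only and 4.96% WT-only, and B cell genes at 0.758% and 49.2%.

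Among signalling genes of this list, Prkcq, which encodes protein kinase C theta of the T cell receptor pathway, had 5 KO-only and 2 WT-only regions among 51. They lay upstream, inside and downstream of the gene, with fold enrichments of 2.68 to 4.21 in KO-1 and 3.08 to 4.68 in KO-2. The strongest in KO-1 was chr2:11146711-11147010, 25045 bp upstream (4.21 and 4.68). Lat, the adaptor that links the receptor to its signalling complex, had 2 KO-only regions among 8, both downstream, at chr7:126357909-126358128 (3.07 and 3.49) and chr7:126330328-126330572 (2.78 and 3.03). Lat regions with a peak numbered 6 and 7 in the KO libraries against 3 and 3 in the WT libraries. Lcp2, an adaptor of the same complex, and Fyn, a kinase at the receptor, had 2 KO-only regions each, beside 2 and 3 WT-only regions.

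Among the surface molecules, Thy1, a glycoprotein of all mouse T cells, had 3 KO-only and no WT-only regions among 18, from 11251 to 55158 bp from the gene. The strongest in KO-2, chr9:44019866-44020362, had fold enrichments of 3.69 and 5.11. Thy1 regions with a peak numbered 11 in KO-1 and 17 in KO-2, both above WT-1 (7) and WT-2 (5). Cd28, the costimulatory receptor, had 2 KO-only and no WT-only among 23 regions, both between Cd28 and Ctla4. They were chr1:60793784-60794088 (3.76 and 8.62) and chr1:60813417-60813785 (4.42 and 9.55), 20577 and 40242 bp from Cd28, and were the strongest members of this list in KO-2. The receptor chain genes Cd3d, Cd3e and Cd247 had 1 each. That of Cd3d, chr9:44981722-44981896, overlapped the gene's start and was a weak peak in KO-2 (3.31 and 2.50). Ptprc, which encodes the Ly5 antigen used as congenic marker, had 3 WT-only regions and 1 weak KO-only region inside the gene, chr1:138142304-138142617 (2.97 and 3.09).

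Among its transcription factor genes, Bcl11b, which sets and keeps T cell identity, had 4 KO-only and 1 WT-only region among 41, with a peak at 19 and 28 regions in KO-1 and KO-2 and at 12 and 19 in the WT libraries. The strongest, chr12:107832896-107833410, lay 77250 bp downstream with fold enrichments of 4.51 and 6.40. The weakest, chr12:108002062-108002248, lay 1166 bp from the Bcl11b start with 2.01 and 2.32. Gata3 had 1 KO-only region inside the gene, also weak (2.14 and 3.16).

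Genes of naive and memory T cells had 24 KO-only regions among 715 (3.36%), beside 81 WT-only (11.3%). The 24 lay at 12 of 26 genes, and WT-only regions outnumbered KO-only at 15 genes and the reverse held at 4, so the list held more WT-only regions as the whole genome did. Without KO-1 the list's KO-only share was 17.3% against 22.3% of all regions, with or without a gene in reach, and without KO-2 it was 11.9% against 11.7%. Bach2, a repressor that keeps T cells from effector differentiation, had 5 KO-only but 11 WT-only regions among 76. Its strongest in KO-2, chr4:32375245-32375505 inside the gene, had 3.65 and 6.29. Il6ra, the receptor of interleukin 6, had 3 KO-only beside 5 WT-only regions, the former all inside the gene and weak (2.43 to 2.70 in KO-1, 2.41 to 3.06 in KO-2), and Btg1, an antiproliferative gene of quiescent T cells, had 3 beside 7 WT-only. Satb1, a chromatin organiser of T cell development, Slamf6, Myb and Actn1 had 2 each. Tcf7, the transcription factor of naive and stem-like T cells, had 1 KO-only and 1 WT-only region. The KO-only region, chr11:52284128-52284292, lay 1114 bp from its start with 2.40 and 2.75. Foxp1, a quiescence factor, had 1 KO-only and 15 WT-only among 114.

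Th1 effector genes had 7 KO-only regions among 316 (2.22%), near the 1.87% of all genes, beside 49 WT-only (15.5%). Without KO-1 or KO-2 the KO-only share was 11.6% or 8.05%, against 22.3% and 11.7% of all regions, with or without a gene in reach. The 7 lay at Id2 (2), Prdm1 (2), Il2, Xcl1 and Irf1 of 30 genes. WT-only regions outnumbered KO-only at 16 genes and the reverse held at Il2 alone. The Il2 region, chr3:37126697-37126948, lay 743 bp from the start of this T cell growth factor gene, with fold enrichments of 2.65 and 2.84, and a WT peak lay 494 bp away. The strongest of the 7 in KO-2 was chr12:25117806-25118174, 21898 bp upstream of Id2, a regulator of effector cells (3.60 and 7.22). No KO-only region lay at Ifng or Tbx21. Cytotoxic genes had 0 KO-only and 10 WT-only among 52 regions. Settings that also drop weaker WT peaks counted some regions as KO-only. With the 20000 strongest peaks of each list, 3 of 12 did (25%), against 6.72% of all regions. With a −log10 q of at least 10 in every list, 1 of 26 did (3.85%), against 1.82% of all regions.

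Inhibitory receptor and exhaustion genes had 12 KO-only (3.67%) and 22 WT-only regions among 327. Of the genes behind the sort gate, Pdcd1 had 1 KO-only region, chr1:94078759-94079024, 26338 bp upstream, with fold enrichments of 2.85 and 2.95 and a WT peak 113 bp away. Lag3 had 1 inside the gene, chr6:124907846-124908118 (3.01 and 2.92), and Entpd1, which encodes CD39, had none. Cd200 and Ikzf2 had 2 KO-only regions each. Nr4a3, an orphan receptor induced by T cell receptor signals, had 1 that was stronger than these in KO-2, chr4:48034387-48034658 (3.44 and 6.74). In KO-1 the Cd200 region chr16:45328356-45328693 was higher (4.08 and 4.20).

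Genes of regulatory T cells had 10 KO-only (6.02%) and 9 WT-only regions among 166, at 4 of 16 genes, with a peak at 74.7% of them in KO-2 and 54.2% to 65.7% in the other libraries. Without KO-1 the list's share was 20.6% against 22.3% of all regions, with or without a gene in reach, and without KO-2 it was 14.1% against 11.7%. Nrp1, a semaphorin receptor, had 4 and Il1rl1, which encodes the receptor of an alarmin cytokine, had 3 among 8. Il1rl1 had a KO-only region inside the gene, chr1:40444618-40445100 (5.24 and 6.06), and another 4981 bp upstream, chr1:40399699-40400067 (3.60 and 8.14). All 8 of its regions had a peak in KO-2, but only 3 did in KO-1, and 2 and 4 did in the WT libraries. Ikzf2 had 2 and Ctla4 1, and Foxp3, the defining factor of these cells, had none.

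The other T cell lists had between 0 and 10 members each. Activation genes had 10 among 361 (2.77%), at 8 of 23 genes such as Dusp2, Cd69, Myc and Egr2. Th17 genes had 6 among 125 (4.80%), including 2 at Rora and 1 each at Stat3, Il21 and Batf. Follicular helper genes had 5 among 149 (3.36%), including Il21 (chr3:37243826-37244217, 3.44 and 5.36). Homing and adhesion genes had 5 among 159 (3.14%), the strongest 21950 bp upstream of Ccr2 (chr9:124079609-124080327, 4.25 and 7.92), and Th2 genes had 1 among 57.

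Marker genes of other cells set the libraries apart. B cell genes had 1 KO-only and 65 WT-only regions among 132, and a peak at 8.33% and 15.2% of these in KO-1 and KO-2, against 76.5% and 82.6% in the WT libraries. All 13 B cell genes had a peak in both WT libraries, against 5 in KO-1 and 10 in KO-2, and Ms4a1 and Fcer2a were among those with none in either KO library. Myeloid genes had 2 KO-only and 32 WT-only among 114, with a peak at 33.3% and 48.2% of them in the KO libraries and 68.4% and 76.3% in the WT libraries. Adgre1, Csf1r and Itgax had no peak in either KO library, while Itgam and Batf3 had 5 and 3 regions with a peak in KO-1, 6 and 5 in KO-2, 4 and 3 in WT-1, and 7 and 5 in WT-2. The part of these B cell and myeloid peaks in the list counts was not tested. Natural killer and CD8 T cell genes had no KO-only region. Melanocyte genes had 1 among 40, at Gpnmb (chr6:49029175-49030006, 4.91 and 6.27). A peak was present at 35% of the 40 in KO-1 and 77.5% in KO-2, and at 40% and 42.5% in the WT libraries. Housekeeping genes had 3 among 45 (6.67%), a share above that of the T cell list that came from 1 gene, since all 3 lay near Ywhaz (3.03 to 4.09 in KO-1, 3.43 to 7.64 in KO-2).

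**Figure D5:**
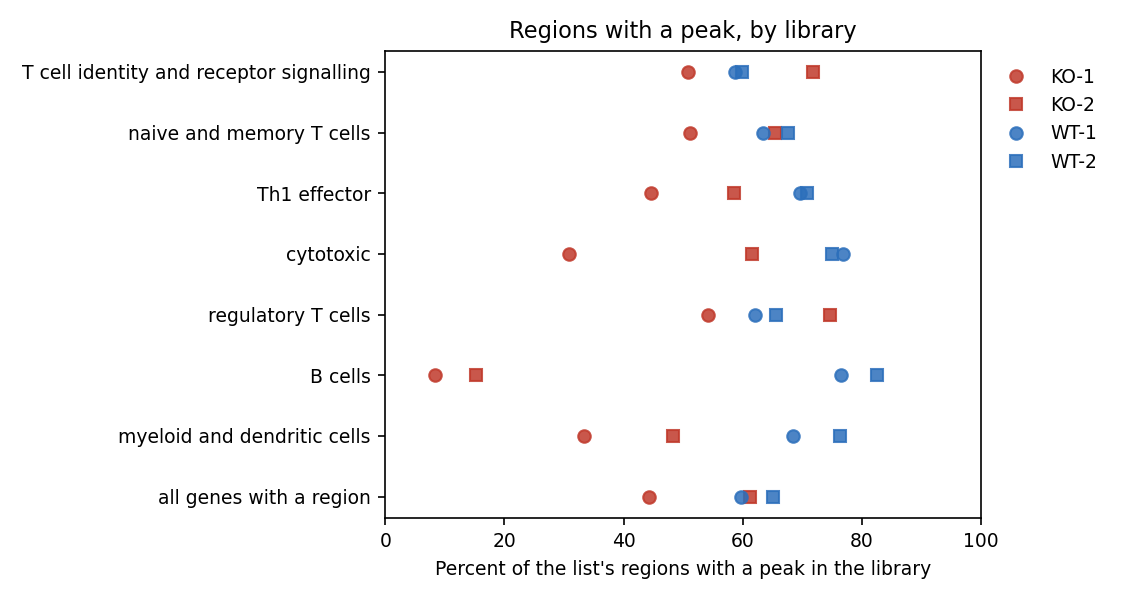
Percent of a list's regions with a peak in each library (x axis), for 7 gene lists and all genes (y axis), with 1 symbol per library. For B cell genes the KO libraries stand at 8.33% and 15.2% and the WT libraries at 76.5% and 82.6%, while T cell identity genes lie between 50.8% (KO-1) and 71.8% (KO-2).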

How the data were processed

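The labels' protocols give sorting, freezing in 10% DMSO with serum, and transposition after thawing (42 °C, 45 min), with 50 bp paired-end reads. The submitters' processing notes name BWA, SAMtools, Picard, MACS2, deepTools and the build GRCm38 (mm10). Their versions and settings, the filters and any read shift were not given in the sources. Each deposited list gave 10 columns for 1 library: position, fold enrichment (a ratio, in column 7), −log10 p and −log10 q as deposited, and the summit. These values are the authors' own. Peaks were ranked and filtered within a list, and where fold enrichments of libraries stand side by side, they were not scaled to each other. Depth is unknown, and no read-based interval was set.

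Merging, class and gene assignment (nearest protein-coding RefSeq interval to the midpoint, within 100 kb) were done in Python 3.11 with pandas 2.3.3, and merging was tested on simulated data. Sequences came from RefSeq GRCm38.p6 and lack chromosome 18. Named were genes with at least 3 KO-only regions, list members with one (up to 8 a list), the 15 strongest regions, the 15 strongest within 1 kb of a start, the 5 widest, runs of at least 3, and Pdcd1, Lag3, Entpd1 and Ptprc. The members and lists were chosen with earlier results of these data known. Other genes, such as Gimap4, Cd3d, Tcf7 and the markers of other cells, were picked after their values were seen. Some items are not reported here. A comparison of 2 libraries with 2 could not reach an exact two-sided permutation p below 0.33, so none was made. Other peak thresholds, overlap rules, chromosome sets, gene distances and left-out libraries were tried.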

Additional observations from a re-analysis of the deposited data

How the results depend on the processing

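KO-only regions numbered 1069 with a −log10 q of at least 5 in every list, 645 with at least 10, and 56 with at least 10 in the KO lists and any WT peak counted. Limits set in every list, and the cut to the 20000 strongest, also drop weaker WT peaks. A region with such a peak can then count as KO-only. Leaving out 1 library gave 2515 to 20130, with 20130 without KO-1, 9382 without KO-2 and 3242 without WT-2. The share within 1 kb of a gene end was 5.36% for the 56, 16.03% with summit windows, 5.06% with no WT peak within 1 kb, and 4.98% to 8.75% without 1 library. The share overlapping a gene was 56.5% and 54.7% at the limits of 5 and 10, 44.6% for the 56, 55.4% with the 20000 strongest peaks, and 44.1% to 59.7% without 1 library. The median width was 433 and 560 bp at the limits of 5 and 10, 530.5 bp for the 56, 591 bp with the 20000 strongest, 347 bp with no WT peak within 1 kb, and 197 to 351 bp without 1 library. The median lower percentile was 51.7 and 66.4 at the limits, 66.3 for the 56, 65.3 with the 20000 strongest, 29.3 with summit windows, 26.8 with no WT peak within 1 kb, and 20.9 to 29.4 without 1 library. The share whose next region in genome order was KO-only was 3.41% at the limit of 10 and 11.0% with the 20000 strongest. For the 56 it was 0%, with only the 56 counted as KO-only. Without 1 library it was 5.45% to 38.4%, and KO-only regions were also a larger share of all regions there. Stricter limits keep wider and stronger peaks by construction, and the cause of the other changes was not tested.

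With genes assigned within 10 kb, the KO-only count was 19 in place of 31 for T cell identity, 4 in place of 7 for Th1 effector, 5 in place of 12 for exhaustion, 4 in place of 10 for activation, 5 in place of 10 for regulatory T cell, 1 in place of 2 for myeloid and 1 in place of 3 for housekeeping genes, and the other 10 lists were within 1.5 times. No paired analysis was possible because the results come from no test. Summit windows give no width, since their width is set. The peak threshold and an unknown depth limit what an absent peak shows.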

Other observations

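A KO-only region, chr6:47803563-47803792, overlapped the hairpin of the microRNA Mir704. Those of Mir6906, Mir3075, Mir7031 and Mir7050 lay within 1 kb of another KO-only region, at 307 to 861 bp. The matching counts for WT-only or all regions are not given, so these hairpins are named as places only.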
